A study of Mus musculus with 11 samples.

Results

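Cxcl13 is 1 of the 754 genes counted in sorted peritoneal macrophages of PBS- and IL-4c-injected mice, and it is described here across the 4 groups of treatment and genotype. It was chosen by its measured values in these groups, its fall after IL-4c and its difference between the genotypes, so its levels and differences are given as a description and carry no test. CXCL13, also known as BLC or BCA-1, is a secreted CXC chemokine that attracts B cells through the receptor CXCR5. In lymphoid follicles it is made mainly by stromal cells and follicular dendritic cells downstream of lymphotoxin and TNF receptors. In the serous cavities macrophages and stromal cells are known sources, and the chemokine keeps B1 cells, the innate-like B cells of the cavity, in place.

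Macrophages were sorted as CD11b+F4/80+ cells from female mice, 6 to 8 weeks old and of the C57BI/6 strain by the labels, that received PBS or IL-4c intraperitoneally on days 0 and 2 and were killed on day 4. IL-4c is a complex of IL-4 with an anti-IL-4 antibody that prolongs the action of the cytokine. Rα+/+ mice carry intact Retnla, the gene for RELMα, a small protein that IL-4-activated macrophages secrete. RαTd/Td mice lack RELMα in all cells, since a TdTomato reporter replaces part of Retnla on both alleles after deletion with a ubiquitously active Cre. The deletion was therefore not specific to macrophages. PBS was given to 2 Rα+/+ animals, numbered 1 and 2, and to 2 RαTd/Td animals, numbered 3 and 4. IL-4c was given to 3 Rα+/+ animals, numbered 5, 6 and 7, and to 4 RαTd/Td animals, numbered 9, 10, 11 and 12. The study removed another IL-4c-treated Rα+/+ mouse whose expression resembled that of PBS-treated mice and which also had less RELMα in the peritoneal fluid and fewer peritoneal cells. That mouse was not analysed here.

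Values are Nanostring counts normalized to housekeeping genes, referred to as normalized counts, from 1 barcoded probe per gene. Low values stand at a floor of 30, and a gene at 30 has a limit and no level. The floor was read from the values as the higher of 30 counts and 30 normalized counts, and the bounds on folds rest on that reading. Dividing each mouse's values by its scaling factor gave whole counts, which summed to between 268858 and 574505 per mouse over genes above the floor, and the lowest value that could be measured lay between 30.5 and 56.3 normalized counts. Retnla checked the genotypes: in Rα+/+ mice it was at 4631 and 4141 normalized counts after PBS and between 115675 and 171588 after IL-4c, and in all 6 RαTd/Td mice at the floor. Adgre1, which encodes F4/80, lay between 5897 and 10617 normalized counts and Itgam, which encodes CD11b, between 7780 and 11245, so both markers of the gate were present in every mouse. Among the IL-4c-treated mice, mouse 12 alone had the B cell marker Ms4a1 and the stromal genes Col1a2 and Col3a1 above the floor. The Cxcl13 values without mouse 12 are given with those markers. It also held the most Ccr2, Ccl24 and Cd163 of these mice, at 464, 3689 and 718 normalized counts.

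The start of the Cxcl13 gene is shown to place the transcript that the probe counts. The 250 bases before the annotated start in RefSeq lie on the plus strand of mouse assembly GRCm38.p6 at chr5:95956689-95956938, and the capitals mark a TATA-like motif, TATAAATA, that begins 46 bases before the start.
Cxcl13 promoter: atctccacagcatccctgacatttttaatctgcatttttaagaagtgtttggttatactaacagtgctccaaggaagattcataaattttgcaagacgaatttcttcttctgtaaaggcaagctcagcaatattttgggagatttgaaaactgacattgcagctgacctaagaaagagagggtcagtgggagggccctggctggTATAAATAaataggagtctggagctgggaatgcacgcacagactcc
On either strand, TATAAATA was found in 1.56% of 32851 RefSeq promoter windows of this length. It was searched after the sequence had been read. The STAT motif TTCNNNGAA, found in 7.02% of windows, had no match here on either strand, which says only that these letters do not occur in this window. The same held for a pair of NF-kB-type motifs (1.41% and 1.45% of windows) and for the STAT6-type motif with 1 more base between its arms (5.85%).

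After PBS, Cxcl13 stood at 2151 and 1486 normalized counts in the Rα+/+ mice and at 1202 and 1489 in the RαTd/Td mice. The sorted fraction of both genotypes thus held a high level of the transcript, and the ranges of the genotypes overlapped. The mean was 1818 ± 471 normalized counts (SD, n = 2) in Rα+/+ and 1345 ± 203 (SD, n = 2) in RαTd/Td mice. The log2 difference, RαTd/Td minus Rα+/+, was -0.42, and it ranged from -0.69 to -0.15 when 1 of the 4 mice was left out. The difference of the means, 473 normalized counts, was about as large as the SD of the Rα+/+ pair, and no order of these groups can be read from it.

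After IL-4c, Cxcl13 was at the floor in mice 5, 6 and 7, all 3 of the Rα+/+ mice. Their lowest measurable values were 34.3, 36.4 and 34.8 normalized counts, so the transcript was below these levels and had no level of its own. RαTd/Td mice kept some transcript, at 87.6 in mouse 9, 92.0 in mouse 10, 484 in mouse 11 and 327 in mouse 12. Every RαTd/Td mouse was above the floor, and every one was below both PBS-treated RαTd/Td mice. The group mean was 248 ± 193 normalized counts (SD, n = 4). From highest to lowest the order of the group means was therefore PBS-treated Rα+/+, PBS-treated RαTd/Td, IL-4c-treated RαTd/Td and IL-4c-treated Rα+/+. Only the first neighbours in this order overlapped.

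**Figure D1:**
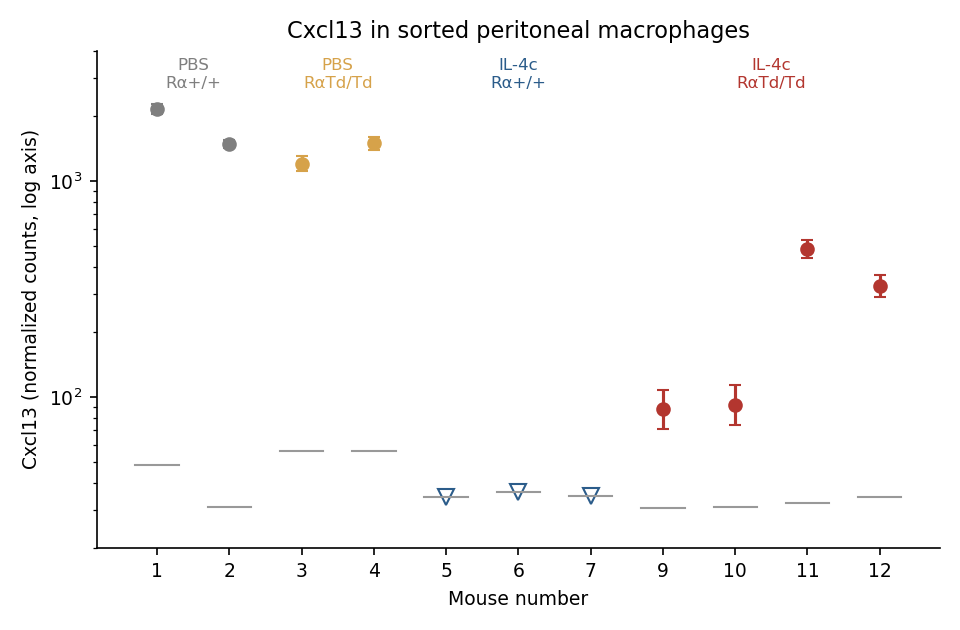
Cxcl13 in normalized counts (log axis) in each of the 11 mice. Circles are measured values with 95% exact Poisson intervals from the recovered counts, which cover counting error only, grey lines mark the lowest measurable value of each mouse, and open triangles mark mice at the floor. Mice 5, 6 and 7 have no measured value, while mice 9 to 12 lie between 87.6 and 484 and all PBS-treated mice lie between 1202 and 2151.

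The spread among the IL-4c-treated RαTd/Td mice was wide. Mouse 11 held 5.53 times the Cxcl13 of mouse 9, whereas the PBS-treated pairs differed by 1.45 times in Rα+/+ and 1.24 times in RαTd/Td mice. The values rested on 92, 89, 449 and 285 counts in mice 9, 10, 11 and 12, with 95% exact Poisson intervals of 70.6 to 107, 73.9 to 113, 440 to 531 and 290 to 367 normalized counts. Mice 9 and 10 were alike within these intervals, and mice 11 and 12 lay above both.

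In Rα+/+ macrophages Cxcl13 was at least 50.8-fold lower after IL-4c than after PBS, taking the geometric means of the measured values and of the lowest measurable values. On the log2 scale with 1 added, the difference was -5.85, which depends on the floor, and of the 445 genes above the floor in at least 1 mouse none had a larger fall. Apoe, which encodes a lipid-carrying apolipoprotein, came next, and took the first place when 10 was added in place of 1, under quantile normalization, with a single floor of 56.3 for all mice, or without mouse 2 or mouse 7. In RαTd/Td macrophages the geometric mean fell to 0.141 of its PBS value, a log2 difference of -2.81 and the fifth largest fall. No IL-4c-treated mouse of either genotype reached a PBS-treated mouse of its own genotype. The same complete separation downwards held for 42.9% of all tested genes in Rα+/+ and 43.6% in RαTd/Td mice.

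After IL-4c, Cxcl13 was at least 5.37-fold higher in RαTd/Td than in Rα+/+ macrophages. The log2 difference was 2.62, the largest positive difference among the 445 genes, ahead of Marco (2.18), a scavenger receptor for bacteria and particles, and Cd163 (1.66), the haemoglobin scavenger receptor. Marco was at 211, 267 and 341 normalized counts in mice 5 to 7 and at 463, 641, 2398 and 3111 in mice 9 to 12, so that mice 11 and 12 stood highest for Marco too. In 16.4% of the genes every IL-4c-treated RαTd/Td mouse was above every IL-4c-treated Rα+/+ mouse, as for Cxcl13. The place of Cxcl13 depended on mouse 11, without which the log2 difference of 2.17 stood at rank 3, and on the floor: with a single floor of 56.3 it was 1.73 and stood behind Marco. In every other setting tried it kept the first place. The 3 lanes at the floor also had the lowest positive controls, synthetic targets added to each lane, with geometric means between 301 and 441 counts against 507 to 623 in the lanes of mice 9 to 12. Their summed counts were 487815 to 574505, against 447267 to 523942 in mice 9 to 12. These sums include Retnla, at a geometric mean of 143007 normalized counts in mice 5 to 7 and at the floor in mice 9 to 12. They therefore do not compare the depth of the lanes for other genes. The scaling factors were 1.145 to 1.213 in mice 5 to 7 and 0.952 to 1.148 in mice 9 to 12. The part of the positive controls and of depth in the result was not tested.

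**Figure D2:**
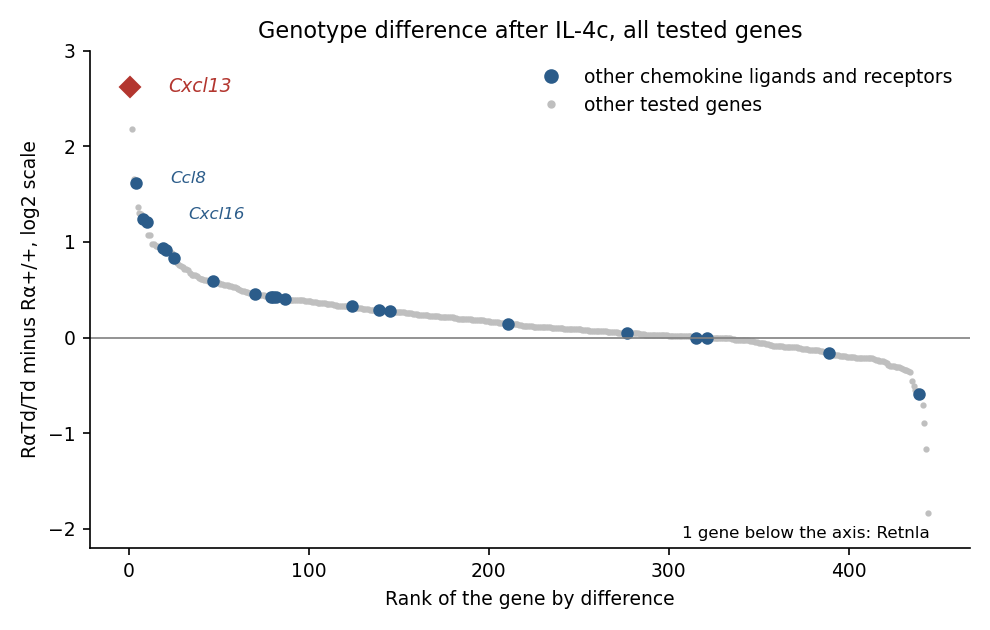
Difference between IL-4c-treated RαTd/Td and Rα+/+ macrophages for the 445 tested genes, on the log2(normalized counts + 1) scale, ordered from highest to lowest. Cxcl13 (diamond) stands first at 2.62, the 21 other chemokine ligands and receptors above the floor in at least 1 mouse (blue) are spread along the curve, and 17 of them lie above 0, as do 70.3% of all 445 genes. Retnla, the deleted gene, lies below the plotted range.

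The pattern of detection was shared with few genes. Of the 445 genes, 68 were at the floor in each of mice 5, 6 and 7, and 25 of these were above it in all 4 PBS-treated mice. Cxcl13 and Dusp6, a phosphatase that switches off ERK, were the 2 genes of the 25 that were also above the floor in all 4 IL-4c-treated RαTd/Td mice. Of the others, 4 were at the floor in all of those mice, Cxcl12, Irf8 and Rnd3 among them, and 19 were above it in some. Cxcl13 and Dusp6 also had the highest geometric means of the 25 in PBS-treated Rα+/+ mice, 1788 and 887 normalized counts. Fscn1 came next at 412. A gene with a lower start meets the floor after a smaller fall, so this pattern depends on the starting level as well as on the fall.

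Likeness to Cxcl13 was measured over the 11 mice as the root mean square difference between log2 values, each gene centred on its own mean. The closest of the 444 other genes were Dusp6 (0.78), Apoe (0.93), Clec7a (1.08), Csf3r (1.14) and Lpl (1.19), against a median of 2.25. Clec7a encodes the beta-glucan receptor dectin-1, Csf3r the G-CSF receptor, and Lpl lipoprotein lipase. Apoe was at 38349, 22003, 38543 and 40251 normalized counts in PBS-treated mice 1 to 4, and at 458, 525 and 625 in mice 5 to 7. In mice 9 to 12 it was at 583, 791, 2058 and 1646, so that mice 11 and 12 stood highest among the IL-4c-treated mice for Apoe, as they did for Cxcl13. Dusp6 did not share this: it was at 85.7, 34.1, 80.8 and 134 normalized counts in mice 9 to 12. The measure favours genes with a range as wide as that of Cxcl13. When each gene was also divided by its SD, which leaves the shape alone, none of these 5 remained among the closest 5, which were C1qc, Fn1, C1qa, Cd14 and Alox5ap.

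Fn1, which encodes fibronectin, shows that second kind of likeness. It ranged over 50339 to 65106 normalized counts after PBS, over 18494 to 20704 in mice 5 to 7, and stood at 24062, 24419, 34472 and 32499 in mice 9 to 12. C1qc, a chain of the complement protein C1q, lay between 14043 and 16576, between 5814 and 6382, and at 7120, 8813, 10148 and 10112. Like Cxcl13, both genes were highest after PBS, lowest in IL-4c-treated Rα+/+ mice and between these in RαTd/Td mice, with mice 11 and 12 above mice 9 and 10. Their ranges were far narrower than that of Cxcl13.

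**Figure D3:**
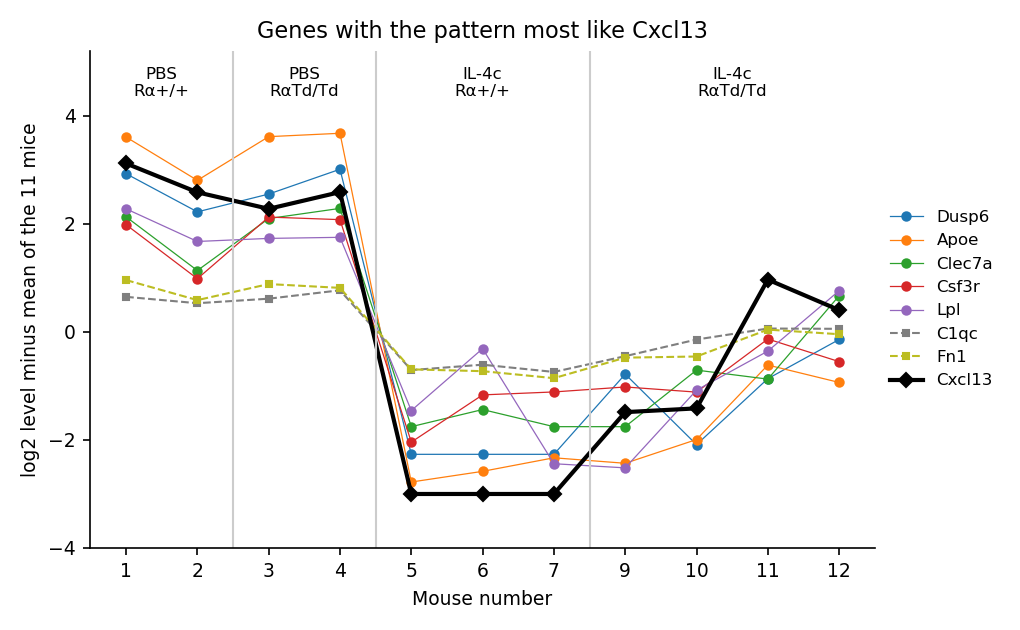
Log2(normalized counts + 1) of Cxcl13 (black), of the 5 genes with the smallest root mean square difference from it (solid lines) and of the 2 closest in shape after division by the SD (dashed lines), each minus its mean over the 11 mice. Lines only join the points of a gene, and mice of a group have no order. All genes are high in mice 1 to 4 and low in mice 5 to 7, and Cxcl13 is the lowest of those drawn in mice 5 to 7.

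The transcript of CXCR5, the receptor for CXCL13, was near the limit of the assay in these sorted samples. Which cells of the sorted fraction held it was not tested, and the B cell marker Ms4a1 also fell after IL-4c. Cxcr5 was at 51.5 and 79.5 normalized counts in PBS-treated Rα+/+ mice and at 67.3 in mouse 3, and at the floor in mouse 4 and in all 7 IL-4c-treated mice. Receptor and ligand were thus both lower after IL-4c in Rα+/+ mice, where the log2 difference of Cxcr5 was -1.07 (SE 0.29, adjusted p = 0.0123 from limma) and the fall at least 1.82-fold. The call was lost when values were taken relative to the median gene of each mouse (-0.77), with the single floor (-0.24) and without mouse 2 (-0.76), and by the methods' t-test after adjustment, and in RαTd/Td mice the log2 difference was -0.57 (adjusted p = 0.104). Among the other genes that guide B cells, Cxcl12, whose product binds CXCR4, was at 232 and 130 normalized counts in PBS-treated Rα+/+ and at 196 and 216 in PBS-treated RαTd/Td mice. It was at the floor in all 7 IL-4c-treated mice, a fall of at least 4.94-fold in Rα+/+ (adjusted p = 8.61e-06) and at least 6.43-fold in RαTd/Td mice (adjusted p = 3.23e-06). Cxcl12 and Cxcl13 were thus both at the floor in IL-4c-treated Rα+/+ mice, and only Cxcl13 of the pair stayed measurable in IL-4c-treated RαTd/Td mice. Cxcl12 started lower, at a geometric mean of 206 normalized counts in PBS-treated RαTd/Td mice. Its bound of 6.43-fold there is below the 7.08-fold fall of Cxcl13, and in Rα+/+ mice both falls are bounds. No difference between the falls of the pair can therefore be read. S1pr1, a receptor for exit from tissues, also fell in both genotypes (log2 differences -2.09 and -1.90). Ccl19, Ccl21a, Ccl20, Ccr7 and Cxcr3 were at the floor in all mice, and Gpr183 and Ccr6 were above it in 1 mouse each.

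Cxcr4, the receptor for CXCL12, was the single gene of the 21 other chemokine ligands and receptors tested whose IL-4c response was called different between the genotypes (difference in log2 response -1.27, SE 0.22, adjusted p = 0.0193 from limma), where 2.02% of all tested genes passed. The call was lost with the single floor (-0.60) and without mouse 4 (-1.20), mouse 6 (-1.17) or mouse 7 (-1.26). Cxcr4 was at the floor in mouse 1, below 48.2 normalized counts, at 36.8 in mouse 2 and at 103 and 113 in PBS-treated RαTd/Td mice. After IL-4c it was between 48.1 and 64.3 in Rα+/+ and between 65.8 and 86.1 in RαTd/Td mice. Unlike Cxcl13, it was highest in the PBS-treated RαTd/Td mice, and mouse 1 has a limit only, so no order of the other PBS-treated group against mice 5 to 7 can be read.

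Of the 51 other chemokine ligands and receptors of the panel, 21 were above the floor in at least 1 mouse and were tested. After IL-4c, 12 of the 21 fell and 1 (Cxcr4) rose in Rα+/+ mice, and 11 fell and 2 rose, Ccl6 among them, in RαTd/Td mice. The Cxcr4 rise of 0.74 in log2 was 0.07 and not called with the single floor. Over all 445 genes, 32.4% fell and 13.9% rose in Rα+/+ mice, and 36.6% fell and 15.3% rose in RαTd/Td mice. The median log2 difference of the 21 genes was -1.07 in Rα+/+ and -0.83 in RαTd/Td mice, against -0.18 and -0.23 over all tested genes. Values relative to each mouse's median gene gave 10 lower and 2 higher in Rα+/+ and 7 lower and 5 higher in RαTd/Td mice, and the medians stayed negative (-0.77 and -0.57). On that scale 20.7% of all genes were lower and 23.8% higher in Rα+/+ mice, and 24.7% lower and 23.4% higher in RαTd/Td mice, so the rises in RαTd/Td mice were at the share of all genes. The largest falls beside that of Cxcl13 were those of the monocyte attractant Ccl2 (log2 differences -2.70 and -2.12), the inflammatory chemokine Ccl3 (-2.47 and -2.55) and Cxcl12 (-2.50 and -2.74), each called in both genotypes. The Cxcl13 difference was -5.85 in Rα+/+ mice, further from 0 than these, and -2.81 in RαTd/Td mice, close to those of Cxcl12 and Ccl3. In mice 5 to 7 Cxcl13, Ccl3 and Cxcl12 were at the floor, as was Ccl2 in mice 6 and 7. The means of Ccl2, Ccl3 and Cxcl12 in PBS-treated Rα+/+ mice were 219, 174 and 181 normalized counts, against 1818 for Cxcl13. These differences therefore depend on the floor and on the starting level, and no order of the true falls can be read.

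**Figure D4:**
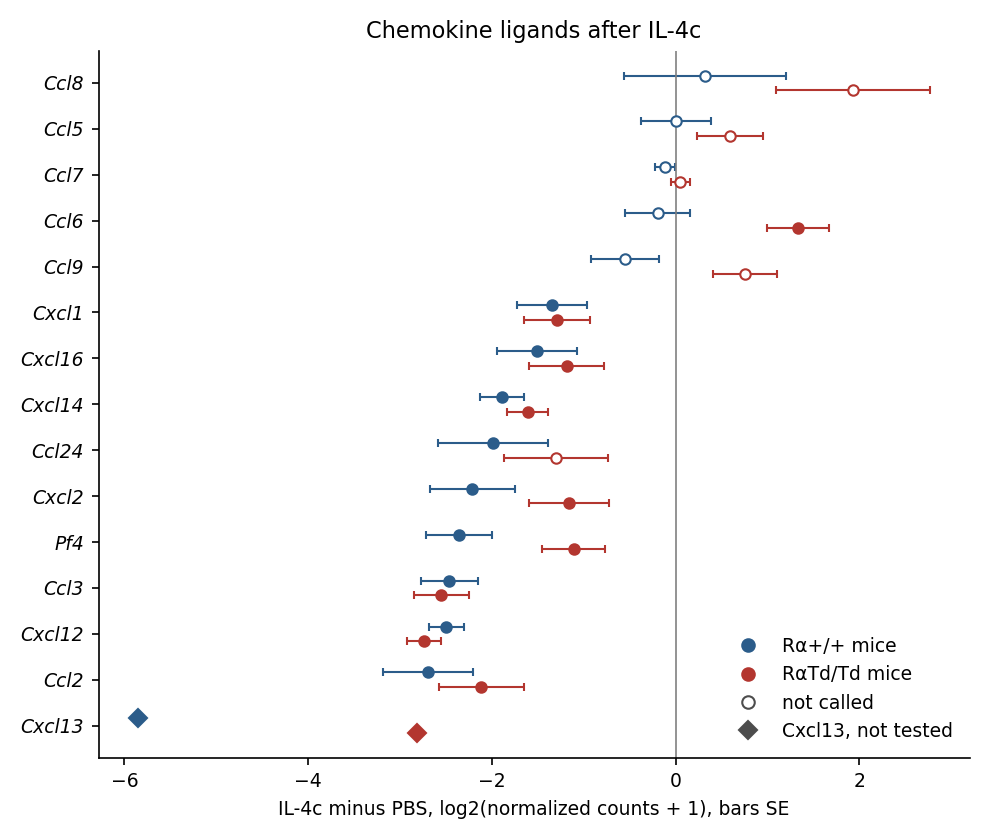
IL-4c minus PBS for Cxcl13 and the 14 other tested chemokine ligands, as differences of log2(normalized counts + 1) with SE bars from limma, in Rα+/+ (blue) and RαTd/Td mice (red). Filled circles are called and open circles not, and Cxcl13 (diamonds) was not tested. Cxcl13 has the lowest value in both genotypes, at -5.85 and -2.81, and the widest gap between them. Differences that involve mice at the floor depend on the floor.

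Between the genotypes, 2 of the 21 genes were called after PBS, among them Cxcr4 (higher in RαTd/Td, log2 difference 1.67), where 9.66% of all genes were called, 8.09% higher and 1.57% lower. After IL-4c 0 of the 21 were called by limma, where 2.7% of all genes were, and 6 passed 0.05 before adjustment (Ccl24, Ccl6, Ccl9, Cxcl16, Ccr1 and Cxcr4), all higher in RαTd/Td mice. Over all genes 18.9% passed 0.05 before adjustment and were higher, and 70.3% had a difference above 0. The methods' t-test found 3 at an unadjusted p and 0 after adjustment. Of the 6, Cxcl16, a membrane-bound chemokine and scavenger receptor, had the largest difference. It was at the floor in mice 5 and 7 and at 40.0 normalized counts in mouse 6, and at 45.7, 59.9, 128 and 112 in mice 9 to 12. Its genotype difference in log2 was 1.24 (SE 0.36, limma adjusted p = 0.102), and as for Cxcl13 the values of mice 11 and 12 were the highest. Ccl8, a monocyte attractant, had a larger difference of 1.62 that was not called, and it stood at 78.1 normalized counts in mouse 9, 159 in mouse 10 and 499 in mouse 12 but at the floor in mouse 11, where Cxcl13 was highest.

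Lymphotoxin and TNF signals to NF-kB are a known route to Cxcl13 in lymphoid tissue. Of 15 panel genes of this route, the ligands Lta, Ltb and Tnf, the kinase gene Map3k14 (NIK) and Traf1 were at the floor in all mice, and 10 were tested. After IL-4c, 6 of the 10 fell in Rα+/+ and 6 in RαTd/Td mice, and none rose in either, where 32.4% and 36.6% of all genes fell. Those called in both genotypes were the TNF receptors Tnfrsf1a (log2 differences -0.34 and -0.44) and Tnfrsf1b (-1.21 and -1.21), the NF-kB inhibitor Nfkbia (-1.06 and -0.48) and the survival factor Birc3 (-0.79 and -0.94). Values relative to each mouse's median gene left 5 and 2 of the 10 lower, where 20.7% and 24.7% of all genes were, so in RαTd/Td mice the count was no higher than over all genes. After IL-4c, where the Cxcl13 values of the genotypes differed most, 0 of the 10 were called (median 0.34, against 0.12 over all tested genes; 2.7% of all genes were called). Among factors that act on B cells, Il6, a cytokine for plasma cell survival, was at the floor in mice 1 to 4 and rose at least 4.63-fold in Rα+/+ and at least 2.57-fold in RαTd/Td macrophages (limma adjusted p = 0.000316 and 0.000469). Among mice 9 to 12, Il6 was at 217, 194, 126 and 81.5 normalized counts. It was lower in mice 11 and 12 than in mice 9 and 10, but lowest in mouse 12, whereas Cxcl13 was highest in mouse 11. Tgfb1 fell in both genotypes (-0.65 and -0.77), Cd40 fell in Rα+/+ mice (-0.93), and Il5, Il10, Il15 and Cd40lg were at the floor.

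Genes that IL-4 is known to induce were set beside Cxcl13 in the same mice. Chil3, a chitinase-like protein that is a standard marker of IL-4 activation, was at the floor in mice 1 to 4. It ranged over 56993 to 91581 normalized counts in mice 5 to 7 and stood at 69620, 81626, 55754 and 43527 in mice 9 to 12. Arg1, the arginine-degrading enzyme, ranged over 30921 to 35072 in mice 5 to 7 and stood at 31032, 33469, 23131 and 33953 in mice 9 to 12. Chil3 was thus lower in mice 11 and 12 than in any IL-4c-treated Rα+/+ mouse, and Arg1 was lower in mouse 11. For Chil3 the value of mouse 11 was close to the lowest Rα+/+ value. Chil4, another chitinase-like gene, was lower than in mice 5 to 7 in mouse 12 alone, at 33419.5 normalized counts. In mouse 11 it was at 45820, above the 44973 of mouse 5. Of 14 tested genes of the IL-4 receptor and its targets, 6 rose and 5 fell in Rα+/+ mice after IL-4c. In RαTd/Td mice 5 rose and 4 fell. Over all genes 13.9% and 15.3% rose and 32.4% and 36.6% fell. Retnla, which is deleted in RαTd/Td mice, was among the 6 that rose in Rα+/+ mice. Il4ra, Stat6, Alox15 and Cd36 fell in both genotypes, and Ccl24 was called lower in Rα+/+ mice only. Relative to each mouse's median gene, 6 rose and 3 fell in Rα+/+ mice, and 6 rose and 2 fell in RαTd/Td mice. On that scale 23.8% and 23.4% of all genes rose and 20.7% and 24.7% fell. The calls of Stat6 and Alox15 were lost there in both genotypes. The part of these levels in the Cxcl13 values was not tested.

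Markers of other cells in the sorted fraction also moved with treatment or genotype, and in bulk samples fewer cells of a type and less RNA per cell cannot be told apart. Of 18 B cell markers listed, 3 were on the panel. Ms4a1, which encodes CD20, was at 105 and 226 normalized counts in PBS-treated Rα+/+ and at 192 and 242 in PBS-treated RαTd/Td mice, and after IL-4c at the floor in every mouse except mouse 12, at 63.1. It fell in both genotypes (at least 4.37-fold in Rα+/+ mice, log2 differences -2.32 and -2.54, adjusted p = 0.000797 and 0.000323 from limma), as Cxcl13 did. Fcer2a was at the floor throughout, and Btk, which macrophages express too, lay between 337 and 411. The sum of Ms4a1 and Btk was 450 to 592 in PBS-treated Rα+/+, 553 to 593 in PBS-treated RαTd/Td, 434 to 441 in IL-4c-treated Rα+/+ and 367 to 435 in IL-4c-treated RαTd/Td mice. Mouse 11, with the most Cxcl13 after IL-4c, had Ms4a1 at the floor.

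Of 16 markers of small peritoneal macrophages or dendritic cells, 6 were measured, and Itgax, Flt3, Ccr7, Clec9a and Xcr1 were at the floor in all mice. The sum of the 6, mostly MHC class II genes, was 7554 to 9262 normalized counts in PBS-treated Rα+/+ and 24410 to 32687 in PBS-treated RαTd/Td mice, a gap between groups whose Cxcl13 overlapped. After IL-4c it was 4405 to 7630 in Rα+/+ mice and 7071, 12415, 13297 and 18458 in mice 9 to 12. Ccr2, the monocyte chemokine receptor among them, was at 61.9, 102, 139 and 464 in mice 9 to 12, so mouse 12 and not mouse 11 stood highest. Between the genotypes after IL-4c, H2-Aa and H2-Ab1 were the 2 of the 6 called, both higher in RαTd/Td mice (log2 differences 1.31 and 1.36). Over all tested genes 2.7% were called in this comparison, 1.57% as higher. The part of these cells in the Cxcl13 values was not tested.

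Col1a2 and Col3a1, collagen genes of stromal cells, were above the floor in mouse 12 alone, at 52.8 and 68.9 normalized counts, and Pdgfra, Pdgfrb and Cdh5 were at the floor in all mice. In mice 9, 10 and 11 all 5 were at the floor, and Cxcl13 was at 87.6, 92.0 and 484. Only these 5 of the 12 stromal or mesothelial markers listed were on the panel, and the floor hides low levels. The part of such cells in the Cxcl13 values was not tested. Of the 9 neutrophil or monocyte markers on the panel, 4 were measured, and Ly6g, Cxcr2, Mpo, Elane and Camp were at the floor. The 4 summed to 926 to 1319 normalized counts after PBS and to 358 to 430 in mice 5 to 7. In mice 9 to 12 their sums were 489, 422, 788 and 939. Mice 11 and 12 thus stood above mice 9 and 10, as for Cxcl13, with mouse 12 highest. The part of these cells in the Cxcl13 values was not tested. Of 10 eosinophil or mast cell markers, 9 were at the floor in all mice, Siglecf included, and Cpa3 was above it in mouse 1 alone. The 5 markers of large peritoneal macrophages summed to 17209 to 21494 after PBS and to 11048 to 13169 in mice 5 to 7. In mice 9 to 12 their sums were 14701, 13656.5, 12108 and 8129, lower in mice 11 and 12 than in mice 9 and 10. Gata6, the transcription factor that defines these cells, lay between 503 and 712 in all mice. Timd4, Alox15 and Selp were called lower after IL-4c in both genotypes, where 32.4% and 36.6% of all genes fell. Serpinb2 was called higher in RαTd/Td mice, where 15.3% of all genes rose. Without mouse 12 the genotype difference of Cxcl13 in log2 after IL-4c was 2.36, and that between IL-4c and PBS in RαTd/Td mice was -3.08.

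**Figure D5:**
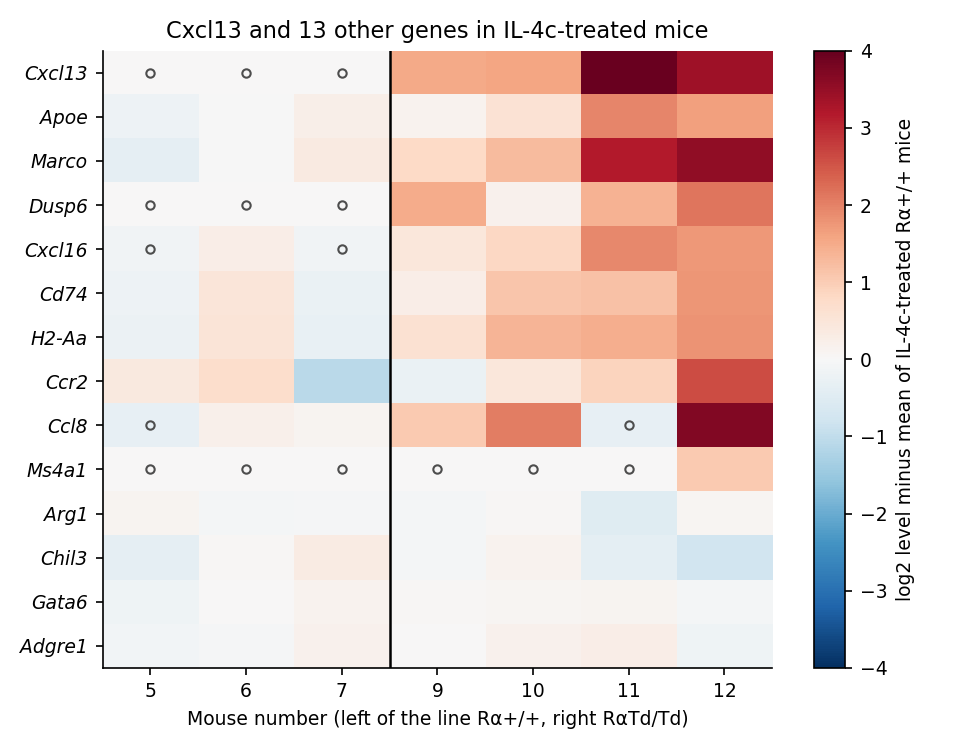
Cxcl13 and 13 other genes in the 7 IL-4c-treated mice, coloured by log2(normalized counts + 1) minus the mean of the 3 Rα+/+ mice (mice 5 to 7). Circles mark values at the floor. The genes were picked with their values known. Cxcl13 is highest in mouse 11, Ms4a1 is above the floor in mouse 12 alone, and Gata6 and Adgre1 vary little.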

How the data were processed

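The deposited values are linear normalized counts (a signal scale) of the Nanostring Myeloid Innate Immunity v2 panel, hybridised with RNA of sorted macrophages from 11 mice. The authors normalized the raw counts to Gusb, Eef1g, Rpl19 and Oaz1, which served as housekeeping genes, with Nanostring's Advanced Analysis software, whose version is not given in the sources used here, and the table lists low values at 30. It holds 754 genes, of which 309 were at 30 in all mice, and 14 control probes (6 positive, 8 negative). A factor per mouse (0.750 to 1.88) turned 100% of values between 30 and 1000 into whole counts within 0.1 counts. From these counts came the lowest measurable value of each mouse, taken as the higher of 30 counts and 30 normalized counts, a rule inferred from the values and stated in no source used here, and 95% exact Poisson intervals, which cover counting error only.

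The 445 genes above 30 in at least 1 mouse were tested on log2(value + 1) by limma 3.58.1 (R 4.3.3), which fitted a coefficient for each group with the spread shared over the 11 mice, and Benjamini-Hochberg adjusted p-values of at most 0.05 were called. The fit was first tested on simulated data. Fold changes on this scale understate changes of low genes, and where a group was at the floor a fold is a bound against the geometric mean of its lowest measurable values. Likeness used the same log2 values. Python 3.11.15 was used for levels and ranks.

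Cxcl13 and the gene lists were chosen with earlier results of these data known. Genes named beside Cxcl13 were chemokine ligands and receptors, factors of B cell attraction and survival, the lymphotoxin and TNF route, IL-4 targets, 8 marker lists, the 5 genes most like Cxcl13, and genes ranked next to it by genotype after IL-4c. No T or NK cell marker was analysed here. Alternatives were 10 added in place of 1, no filter or a mean above 100, centring, quantile normalization, a single floor, a trended and robust fit, a fit of the compared groups, the methods' t-test, and leaving out each mouse. Alternatives for the difference in response were added after the data were seen. Nothing in the labels ties mice to litters, cages or batches. A few genes that the counts include are not reported here.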

Additional observations from a re-analysis of the deposited data

Results flagged for a closer look

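Ccl6, which encodes a chemokine of myeloid cells, was at 6261 normalized counts in mouse 12, and the nearest of the other IL-4c-treated RαTd/Td mice was at 3316. Ccl7, a monocyte attractant, was at 34.4 normalized counts in mouse 12 and at the floor in the other 3 mice of that group. The Ccl7 value equals the lowest measurable value of mouse 12, 30 counts, so the gene only just crossed the floor. Ccl6 stood far from the rest of the group in mouse 12, and both genes were found among 43 groups of values examined in this way, of which chance puts about 1 in 20 this far out. Mouse 12 did not hold the highest Cxcl13 of its group.

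The response of Cxcr4 to IL-4c differed between the genotypes by -1.27 on the log2 scale, and that of Retnla, the deleted gene, by -5.03. With the single floor of 56.3 the Cxcr4 difference was -0.60 and no longer called. These are tests of the difference itself in limma.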

How the results depend on the processing

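The 4 differences of Cxcl13 kept their direction under all alternatives run. With a single floor of 56.3 for all mice the fall in Rα+/+ mice was -4.96 and the genotype difference after IL-4c 1.73. Leaving out each mouse gave -6.12 to -5.58 for IL-4c in Rα+/+ mice, -3.26 to -2.45 in RαTd/Td mice, -0.69 to -0.15 between the genotypes after PBS and 2.17 to 2.99 after IL-4c. No paired analysis was possible because each mouse has its own number and the groups share none.

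Of the 21 other chemokine genes, 13 were called after IL-4c in Rα+/+ mice, but 5 with a mean above 100 and 6 by the methods' t-test after adjustment, and 9 (without mouse 1) to 14 with a mouse left out. In RαTd/Td mice 13 were called, but 6 with a mean above 100 and 8 under quantile normalization, and 7 (without mouse 4) to 14. Fewer genes enter with the higher mean. After PBS 2 differed between the genotypes, but 1 with no filter, with a mean above 100, with 10 added and in the trended and robust fit, 0 in the fit of the 2 groups and by the methods' t-test after adjustment, and 1 to 4 (without mouse 1) with a mouse left out. After IL-4c 0 differed, but 3 by the methods' t-test unadjusted, and 0 to 1 (without mouse 9). The cause of these changes was not tested. Of the 5 genes most like Cxcl13, 0 remained after division by the SD. Over all tested genes, 62 genes were called higher and 144 lower after IL-4c in Rα+/+ mice (106 and 92 when centred, 104 and 107 by quantiles) and 68 and 163 in RαTd/Td mice (104 and 110, 89 and 109). The genotype split was 36 and 7 after PBS (16 and 10, 15 and 8) and 7 and 5 after IL-4c (3 and 5, 5 and 7). Centring each mouse moved the median gene from -0.18 to 0.12 in Rα+/+ and from -0.23 to 0.03 in RαTd/Td mice. Of 71 calls of single named genes, 30 held under all alternatives, and of 1466 values under alternatives 191 lost the call and 0 changed sign.

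Groups of 2 to 4 mice, 1 probe per gene and the floor limit these values. Below about 30 counts no level can be read, so the true fall of Cxcl13 in Rα+/+ mice has a lower bound and no estimate. The removed IL-4c-treated Rα+/+ mouse was not analysed here.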
